A study of Mus musculus with 3 samples.

Results

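The 10 genes described here are imprinted genes whose control region carries methylation from the egg: Peg3, Snrpn, Mest, Peg10, Grb10, Plagl1, Kcnq1ot1, Impact, Nnat and Igf2r. They are taken by name, as genes known for this methylation, and their levels here are not part of the rule. The annotation used holds 37273 genes on chromosomes 1 to 19, X and Y, and all members but Kcnq1ot1 are among them. Each was followed in gDNA of E14 mESCs, an established mouse embryonic stem cell line. The cells were grown in medium with fetal bovine serum, LIF and the inhibitors PD0325901 and CHIR99021. A single library per method from this gDNA is used here, 3 in all: TAPSβ, which reads 5mC as T, CAPS, which reads 5hmC as T, and PS, which reads 5fC and 5caC as T. TAPSβ and CAPS also read 5fC and 5caC as T. The CAPS DNA was selected for shorter fragments than that of the other libraries. There were no replicates, no treatment groups and no reads sorted by parental allele, so levels were compared between positions of a library and not between conditions. All intervals below cover counting error in a single library.

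The 3 libraries held 511365019 base calls for TAPSβ, 377288829 for CAPS and 383591531 for PS, with a median of 13, 9 and 9 reads per CpG cytosine. Over all CpGs, the level (modified calls as a percent of all calls) was 57.5% in TAPSβ, 3.14% in CAPS and 0.246% in PS. The 10 loci with 5 kb on each side were cut into 1340 bins of 500 bp, of which 62 held at least 15 CpGs and are called CpG-dense.

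Imprinted genes are expressed from a single parental copy. At the loci here, a CpG-rich control region gains DNA methylation in the growing oocyte, keeps it on the maternal copy through the reprogramming of the early embryo, and stays free of it on the paternal copy. ZFP57, a zinc finger protein that binds the methylated motif TGCCGC, is known to help keep this mark. If every cell carried 1 methylated and 1 unmethylated copy, the level of such a region would be 50%. Cultured mESCs are known for losing or gaining methylation at some imprinted regions.

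For 6 of the loci, picked with the levels known to span the low and the high runs, 200 bases of the control region are shown, because they let the reader see how many CpGs stand behind a level and whether the ZFP57 motif is there. Each is the stretch with the most CpGs in the dense run described below that overlaps no annotated UTR. They are on the plus strand of NCBIM37 (mm9), 5′ to 3′, with each CpG in capitals. The motif reads tgcCGc, or gCGgca on the other strand, and its outer base is a capital where it belongs to a further CpG.
Peg3, chr7:6682301-6682500: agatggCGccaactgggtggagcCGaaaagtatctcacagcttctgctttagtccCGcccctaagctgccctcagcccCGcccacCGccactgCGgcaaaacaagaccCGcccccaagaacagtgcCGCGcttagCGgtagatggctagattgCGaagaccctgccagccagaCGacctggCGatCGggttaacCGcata
Snrpn, chr7:67149591-67149790: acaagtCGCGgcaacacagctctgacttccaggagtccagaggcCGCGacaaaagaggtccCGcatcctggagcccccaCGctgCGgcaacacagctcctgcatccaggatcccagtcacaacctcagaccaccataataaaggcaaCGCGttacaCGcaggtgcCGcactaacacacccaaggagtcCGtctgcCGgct
Grb10, chr11:11926331-11926530: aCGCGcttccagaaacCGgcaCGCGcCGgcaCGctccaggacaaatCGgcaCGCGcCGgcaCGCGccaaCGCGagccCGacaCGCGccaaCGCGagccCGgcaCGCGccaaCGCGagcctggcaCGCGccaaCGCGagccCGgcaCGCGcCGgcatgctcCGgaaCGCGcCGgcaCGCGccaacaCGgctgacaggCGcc
Kcnq1ot1, chr7:150481501-150481700: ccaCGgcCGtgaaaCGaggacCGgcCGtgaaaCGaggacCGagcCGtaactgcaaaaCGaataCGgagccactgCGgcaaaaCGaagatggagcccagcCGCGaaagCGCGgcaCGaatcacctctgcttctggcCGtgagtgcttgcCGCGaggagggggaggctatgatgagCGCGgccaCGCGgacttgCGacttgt
Plagl1, chr10:12810841-12811040: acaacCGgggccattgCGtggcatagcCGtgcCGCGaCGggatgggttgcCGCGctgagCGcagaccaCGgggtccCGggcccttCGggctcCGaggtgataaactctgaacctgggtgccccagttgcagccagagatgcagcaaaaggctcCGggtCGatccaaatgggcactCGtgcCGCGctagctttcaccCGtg
Nnat, chr2:157386101-157386300: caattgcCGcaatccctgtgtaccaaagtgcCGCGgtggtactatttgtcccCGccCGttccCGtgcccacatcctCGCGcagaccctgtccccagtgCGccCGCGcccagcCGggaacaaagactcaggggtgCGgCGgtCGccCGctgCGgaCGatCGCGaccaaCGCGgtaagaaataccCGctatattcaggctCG
The Peg3 stretch (Peg3 intron) held 15 CpGs and had a TAPSβ level of 13.6%. The stretch of Snrpn (Snrpn intron) held 13 CpGs and stood at 21.5%. In Grb10 (Grb10 intron) the stretch repeats a short CpG-rich unit, held 41 CpGs and stood at 0.472%, with 2 modified calls among 424, and it holds no motif. Kcnq1ot1 (Kcnq1 intron) held 25 CpGs at 8.73%. The stretches of Plagl1 (Plagl1 intron, 19 CpGs) and Nnat (an Nnat coding exon inside a Blcap intron, 24 CpGs) were those with the highest levels of the 6, at 73.0% and 44.2%. They also had the fewest TAPSβ calls, 115 and 86.

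Among the TAPSβ calls obtained, 8 of the 10 control regions lay below 50%. To measure them, the run of CpG-dense bins at or nearest to the transcript start that lies in the known control region was taken for each locus, and the calls of its dense bins were pooled. A run could hold gaps of 1 bin with fewer CpGs, which was left out of the pool. Such a gap occurred in Mest, Peg10 and Nnat, where the whole span stood at 21.6, 13.1 and 61.3%. This choice was made after levels had been seen. Levels ran from 5.33% at Grb10 to 20.4% at Mest in 8 runs, and stood at 59.2% at Nnat and 68.8% at Plagl1. TAPSβ also gave fewer calls than expected from PS in all 10 runs. With each missing call counted as modified, Grb10 moved to 50.8% and Kcnq1ot1 to 52.0%, and 2 runs in place of 8 lay outside 30 to 70%. Calls of a DNA fragment at neighbouring CpGs are not independent, so widened intervals were taken after dividing the calls by 3.13. This factor is the observed over the binomial variance between the strands in 25274 dense bins of the genome at 30 to 70%. The 8 low runs lie below that range. The widened 95% interval lay wholly below 50% in 8 loci and wholly above it in 2. With the number of fragments taken as low as the mean reads per CpG, the intervals of Plagl1 and Nnat held 50% and the 8 others still lay below it, with the upper bound of Impact nearest at 47.2%. As a ratio, the strands of a run differed most in Grb10, with 3.78% on plus and 8.84% on minus. Kcnq1ot1 had 20.6 and 11.6%, Peg10 8.92 and 15.5%, and Snrpn 25.7 and 16.2%. Both strand levels lay outside the widened interval in Grb10, Kcnq1ot1, Peg10 and Nnat, and that of the plus strand did in Plagl1. The widened intervals thus do not cover the spread between strands in these runs.

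**Figure D1:**
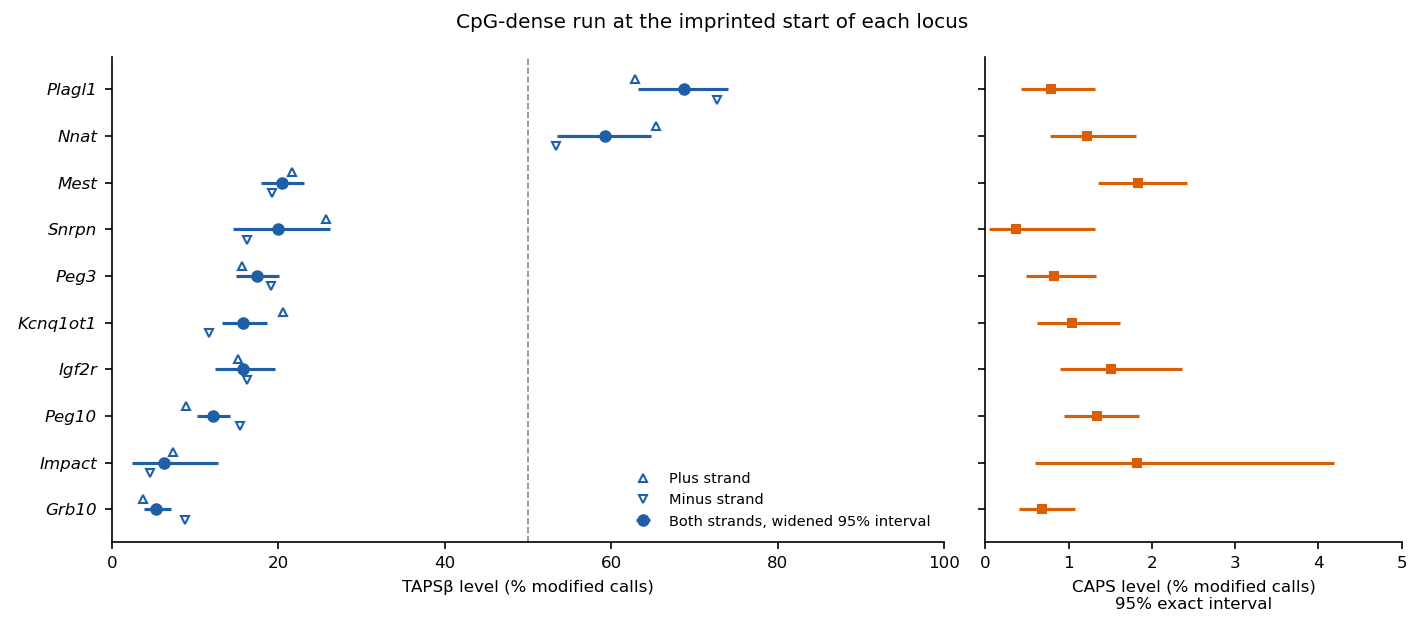
TAPSβ level (left) and CAPS level (right) in percent of base calls for the CpG-dense run at the imprinted start of each locus, in order of the TAPSβ level. Filled points pool both strands with 95% intervals, widened for TAPSβ and exact for CAPS, triangles are single strands, and the dashed line is 50%; 8 loci lie left of it and Plagl1 and Nnat right of it.

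Paternally expressed genes of growth and placenta came out low, apart from Plagl1. Peg3 encodes a zinc finger protein. Its run (chr7:6681501-6684000, at the main Peg3 start) had 481 modified calls among 2762, a level of 17.4% (widened interval 15.0 to 20.1%). CAPS stood at 0.829% and PS at 0.191% in the same bins. Within the run the 5 dense bins ranged from 3.11% just inside the gene to 30.6% upstream of it. The 3 dense bins in Peg3 coding exon sequence were at 73.8 to 79.7%, so the gene was low at its start and high further in. Mest, which encodes a member of the α/β-hydrolase fold family, had 624 modified calls among 3054 in its run (chr6:30685501-30689000), or 20.4% (17.9 to 23.1%). The bin with the most CpGs of the run, 49 over the Mest start, was the lowest at 11.1%, and the 5 others lay between 16.8 and 31.2%. CAPS was 1.83% and PS 0.168%.

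Peg10, a gene derived from a retrotransposon and needed for the placenta, shares its control region with the start of Sgce. The run (chr6:4696001-4699500) stood at 12.1% (10.3 to 14.2%), with 418 modified calls among 3442. The 4 bins with the most CpGs in it were at 4.91 to 10.3%, and the outer bin upstream, in an intron of Sgce, reached 34.4%. CAPS was 1.35% and PS 0.0906%. A second dense stretch in the Peg10 coding exon held a bin at 38.0% next to one at 80.5%. Plagl1, a zinc finger transcription factor that slows the cell cycle, was the exception of this group. Its run (chr10:12810001-12812000) had 633 modified calls among 920, a level of 68.8% (63.2 to 74.1%). The 4 bins held 67.1, 51.0, 80.9 and 77.5% in the direction of transcription, so the lowest was the one with 51 CpGs over the start. CAPS was 0.787% and PS 0.134%.

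Grb10 and Igf2r restrain growth, are known for expression from the maternal copy in most tissues, and have control regions inside the gene. Grb10 encodes an adaptor protein that dampens signalling from the insulin and IGF receptors. It has a main CpG island at its upstream start and a second one at an internal start used in neurons, which is the imprinted one. The internal run (chr11:11925501-11927000) stood at 5.33% (3.84 to 7.18%), from 126 modified calls among 2364. Its middle bin, with 71 CpGs, was at 0.630%, against 2.71 and 18.2% on either side. The upstream island, which is unmethylated on both copies by textbook knowledge, had 3 bins at 0.220 to 0.692% and an edge bin at 19.9%. The middle bin of the imprinted island thus lay in the range of the unmethylated one in TAPSβ level. It had 44.4% of the TAPSβ calls expected from PS, whereas those 3 upstream bins had 95.7 to 143.0%. CAPS was 0.685% and PS 0.146% in the internal run.

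Igf2r encodes the receptor that carries IGF2 to the lysosome. Its own promoter (66 and 43 CpGs in 2 bins) stood at 0.271 and 4.14%. The control region lies in an intron of Igf2r, at the start of the noncoding RNA Airn. There (chr17:12934001-12935500) the level was 15.8% (12.4 to 19.7%), with 200 modified calls among 1269 and bins from 10.7 to 24.2%. CAPS was 1.5% and PS 0.161%. Kcnq1ot1 is a noncoding RNA that silences its neighbours, and its control region lies in an intron of Kcnq1. The gene is not listed in the annotation of this build, so its start (position 150482452 of chromosome 7) came from a unique exact match of the 300 bases of its RefSeq promoter, and the locus was taken as the RefSeq length of 83437 bp from there. Its run (chr7:150481001-150482500) stood at 15.8% (13.2 to 18.7%), with 354 modified calls among 2240. The 3 bins were at 16.1, 9.87 and 23.8% in the direction of transcription, with the lowest again the one with most CpGs (42). CAPS was 1.04% and PS 0.126%.

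Genes known from the nervous system split. Snrpn encodes a protein of the splicing machinery, and its control region is the imprinting centre of the Prader-Willi region. Its run of 2 bins (chr7:67149001-67150000, 42 bp from the Snrpn start) stood at 19.9% (14.6 to 26.2%), with 123 modified calls among 617. CAPS was 0.366% and PS 0.388%, both from 2 modified calls. Nnat, a small membrane protein of neurons, lies inside an intron of Blcap. Its run (chr2:157385001-157387500) had 563 modified calls among 951, or 59.2% (53.4 to 64.8%). The 4 bins were at 77.2, 39.9, 48.7 and 72.6%, so the bins at the start were lower than the outer ones. The bins at 39.9 and 48.7% had 27.3 and 12.3% of the TAPSβ calls expected from PS. CAPS was 1.22% and PS 0.0890%. The start of Blcap itself, downstream of Nnat, had 2 dense bins, with 0 modified calls among 1150 in TAPSβ (at most 0.320%) and with 0.431%.

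Impact encodes a protein that holds back GCN2, a kinase of the amino acid response. Its control region lies in an intron near the gene start. Of the 3 dense bins of its run, 2 (with 30 and 41 CpGs) carried no base calls in any of the 3 libraries and were not analysed here. The third, with 43 CpGs, stood at 6.23% (2.41 to 12.8%) from 20 modified calls among 321. CAPS was 1.82% there, and PS had 0 modified calls among 329, which leaves room for up to 1.11%. The value of Impact therefore rests on a single bin, and it was 10.4% over the cytosines with at least 10 reads.

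**Figure D2:**
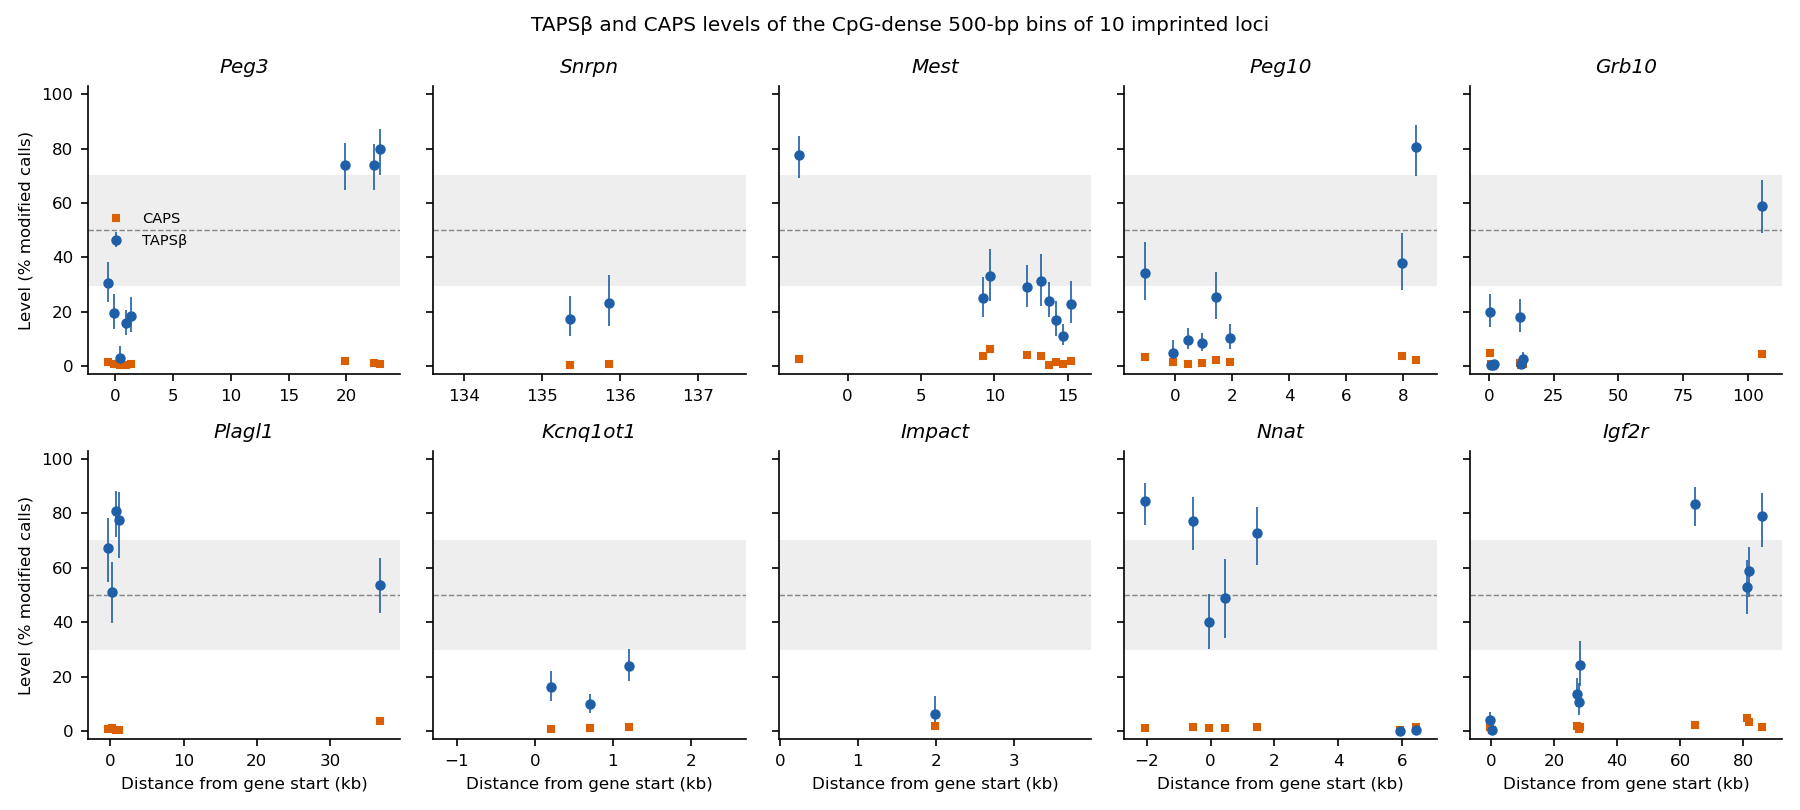
TAPSβ (circles, widened 95% intervals) and CAPS (squares) levels in percent of base calls for the 60 CpG-dense bins with reads, by distance from the gene start in kb along the direction of transcription. The grey band is 30 to 70% and the dashed line 50%; the bins at the imprinted starts lie under the band in most panels, inside or above it in Plagl1 and Nnat, and CAPS stays under 7% in all of them.

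Transcript starts were also measured without regard to the control regions. The 10 genes have 54 starts, all annotated but that of Kcnq1ot1, which came from the RefSeq match. They fall into 32 start regions (starts at most 500 bp apart, with 500 bp on each side). Pooled over all regions, the TAPSβ level was 26.8%. Of 11 start regions as CpG-dense as the dense bins, 3 lay between 30 and 70%, 7 below and 1 above. In the genome, 2.93% of dense start regions lay between 30 and 70%. The 3 were the main Plagl1 region with 8 starts at 65.1% (58.4 to 71.4%), the main Nnat region with 9 starts at 47.5% (39.9 to 55.2%) and a second Nnat start at 67.8% (58.7 to 76.0%). Only the widened interval of the main Nnat region held 50% among these 3. The low ones were the Grb10 upstream start at 0.305%, Igf2r at 1.90%, the internal Grb10 start at 6.31%, Peg10 at 9.23%, Peg3 at 13.2%, Mest at 13.6% and Kcnq1ot1 at 16.4%. Among the start regions with fewer CpGs, the downstream Snrpn start at 16.4% and Impact at 22.5% were the lowest, and all others were above 30%. The upstream Snrpn start stood at 76.1%, an internal Igf2r start at 88.2% and 2 upstream Mest starts at 69.3 and 71.6%.

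CpG-dense bins between 30 and 70% TAPSβ were found in 7 loci, 13 of the 62 dense bins in all. Of the others, 35 lay below 30%, 12 above 70% and 2 had no calls. Across the autosomes 55.4% of 102419 dense bins lay below 30% and 17.8% above 70%. Between 30 and 70% lay 26.8% of them, so the members held no more such bins than dense bins in general. The values of these bins chose them and are given as a description. The ones nearest to the limits were a Peg3 bin at 30.6% and a Mest bin at 29.0%, and a Plagl1 bin at 67.1% and an Nnat bin at 72.6%. Plagl1 had 3 of the 13, and Nnat, Peg10, Mest and Igf2r had 2 each. Peg3 and Grb10 had 1 each, and Snrpn, Kcnq1ot1 and Impact had none. For these, the dense bins ran from 17.4 to 23.2% in Snrpn and from 9.87 to 23.8% in Kcnq1ot1.

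The longest stretches at 30 to 70% were 2 adjacent bins in Plagl1, Nnat and Igf2r. In Plagl1 (chr10:12810001-12811000) and in Nnat (chr2:157385501-157386500) the pair spans the imprinted start, with pooled levels of 58.2 and 42.8%. In Igf2r (chr17:12880501-12881500) the pair lies over an intron and a coding exon near the 3′ end of the gene, at 56.1%, away from the control region at Airn. The Grb10 bin (chr11:11833001-11833500) lies over a UTR exon at the 3′ end of the gene, at 58.9%, and the third Plagl1 bin in a coding exon, at 53.7%. Of the 35 dense bins of the members within 500 bp of any annotated start or that of Kcnq1ot1, 6 (17.1%) were at 30 to 70%. Their median level was 17.4%. In the genome 8.07% of 34743 such bins were at 30 to 70%, with a median of 0.555%. Of the 25 further away, 7 (28%) were at 30 to 70%, against 36.5% of 67676 in the genome. The level chose these bins, so the shares are a description.

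Pooled 5hmC was lower in the bins within 500 bp of a start than in those further away, with an exception in Mest. CAPS reads did not choose the bins. Pooled over the 13 bins, the CAPS level was 2.44% (exact interval 2.03 to 2.91%; 122 modified calls among 4990). The 6 bins at a start stood at 1.47% (1.06 to 1.98%) and the 7 away from starts at 3.75% (2.98 to 4.64%), a ratio of 2.55 (1.76 to 3.69, counting error only). With both levels corrected for the spike-in conversion and false-positive rates, a setting added after values had been seen, the ratio was 4.04. The intervals of these CAPS levels and of the ratio were not widened for calls of the same fragment. Most CAPS calls at starts came from Plagl1 and Nnat. At starts, the Plagl1 bins were at 0.880 and 1.17%, the Nnat bins at 1.01 and 1.04% and the Peg3 bin at 1.33%. These 5 were at percentiles 2.50 to 4.78 of the dense bins of the genome in the same TAPSβ range, whose median was 4.85% with quartiles of 3.24 and 6.67%. The bins of the genome were not matched for CpG number. The remaining start bin, at an upstream start of Mest, stood at 6.25% (3.37 to 10.4%). Away from starts, the levels were 3.21 and 3.81% in Peg10, 3.39 and 4.63% in Igf2r and 3.47% in Plagl1. Mest stood at 3.61% and Grb10 at 4.44%. All 7 lay below the genome median of 4.85%, with intervals that held it. Genome-wide, dense bins in this range had a CAPS median of 5.14% at starts and 4.81% away from them.

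**Figure D3:**
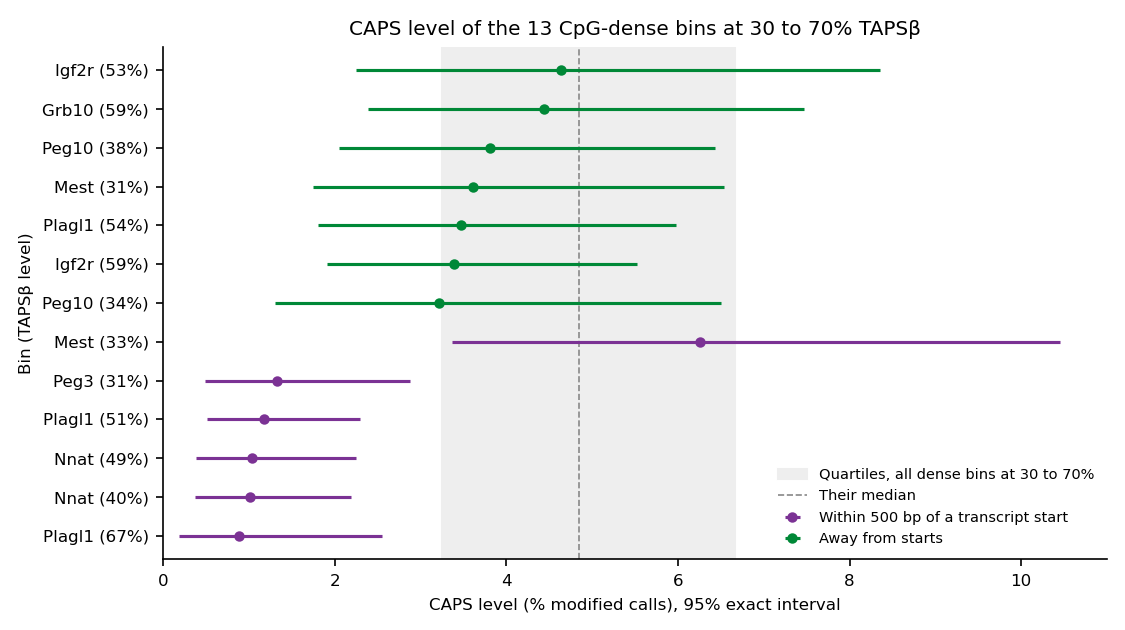
CAPS level in percent of base calls with exact 95% intervals for the 13 CpG-dense bins at 30 to 70% TAPSβ, with the TAPSβ level of each bin beside its name. The band and dashed line are the quartiles and the median of all such autosomal bins with at least 100 CAPS calls; 5 of the 6 bins at a start lie between 0.880 and 1.33%, left of the band.

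The low bins of the members also had little 5hmC. Where TAPSβ lay between 5 and 30%, 24 member bins had a median CAPS level of 1.06%, from 0.266 to 4.94%. The genome's 17207 bins in this range had a median of 4.27% with quartiles of 2.80 and 6.17%. They were not matched to the member bins for CpG number. In this range 27 bins of other genes with maternal methylation had a CAPS median of 1.47%, from 0.435 to 6.61%. These 27 were not limited to control regions, and most of them lie at Gnas. For genes with paternal methylation, 5 bins had a median of 2.76%, from 0.683 to 3.96%. The highest of the 24 was the Grb10 bin beside the unmethylated upstream island. Over the 39 dense bins of the start runs, of which the 2 Impact bins gave no calls, CAPS was 1.14% (0.992 to 1.31%). The CAPS false-positive rate used for calling was 0.0072 of calls. The exact interval of the CAPS level, which was not widened, held this rate in the runs of Peg3, Snrpn, Grb10, Plagl1, Kcnq1ot1 and Impact. It lay above the rate in Mest, Peg10, Nnat and Igf2r. Dense bins of the genome under 5% TAPSβ had a CAPS median of 0.838% with quartiles of 0.521 and 1.34%. The intervals of Peg10, Nnat and Igf2r reached into that range, and that of Mest (from 1.35%) did not.

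To call 5hmC at single positions, modified CAPS calls were tested against that rate (exact binomial test, one-sided) at cytosines with at least 5 CAPS reads, with Benjamini-Hochberg adjustment over all cytosines of the genome. In the gene bodies of the 10 loci 122 of 9771 cytosines were called, or 1.25%, against 1.64% in the genome. The share differed between genes. Plagl1 had 26 of 886 (2.93%) and Grb10 45 of 2082 (2.16%), the most. Kcnq1ot1 had 14 of 1060, Mest 8 of 764, Peg10 5 of 524, Igf2r 18 of 2065, Impact 2 of 378 and Snrpn 4 of 1112. Peg3 had 0 of 714 and Nnat 0 of 186, which allow shares of up to 0.420 and 1.61%. In the start runs 2 of 1852 cytosines were called (0.108%), 1 in Mest and 1 in Grb10. In the 13 bins at 30 to 70%, 5 of 548 were called (0.912%), against 2.92% in such bins of the genome, not matched for CpG number.

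In the loci with their flanks 140 cytosines were called, a number that fell to 87 at 10 reads and to 68 at a background rate 2 times higher. The one with the most modified CAPS reads was on the plus strand at position 12946066 of chromosome 17, in the body of Igf2r, with 7 of 16 CAPS reads modified (43.8%) and 2 of 10 in TAPSβ. An example from Plagl1, picked after values had been seen, is the minus-strand cytosine at 12826335 of chromosome 10, with 5 of 10 CAPS reads and 12 of 26 TAPSβ reads modified. The levels of called cytosines come from the reads that made the call. Downstream start regions of Plagl1, of low CpG density, had 3 of the 4 highest CAPS levels among all start regions, with 10.8% at position 12833271, 9.35% at 12844665 and 6.79% at 12836170, at TAPSβ levels of 38.1, 59.1 and 46.5%. The other of the 4 was the upstream Snrpn start at 8% from 4 modified calls among 50. The main Plagl1 start region had 0.945%. Within this gene, 5hmC was thus high at the downstream starts and low at the imprinted one.

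No PS level above that of all CpGs was detected. Over the 13 bins PS had 7 modified calls among 6255, or 0.112% (0.0450 to 0.230%), and over the start runs 27 among 19503, or 0.138% (0.0912 to 0.201%). The PS level of all CpGs was 0.246%. These levels all lay below the false-positive rate that the paper reports for PS on its unmodified spike-in. They are thus no evidence of the bases that PS reads. Among the single start runs only Snrpn lay above that rate, at 0.388% from 2 modified calls. Its exact interval (0.0470 to 1.39%) held the rate.

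Single CpGs showed whether a level came from a mixture of fully modified and unmodified CpGs. Each CpG was taken with both strands summed and at least 10 TAPSβ reads. In the bins at 30 to 70%, 88.8% of 187 such CpGs lay between 20 and 80%, with a median of 43.8%. The same calls chose these bins, and in all such bins of the genome this share was 84.1%, so it is given as a description. In the start runs, 848 of 1138 CpGs had 10 reads, and 65.0% of them lay below 20%. Grb10 had 117 of 131 CpGs below 20% and none above 47.1%. Impact had all 14 below 20%, with none above 15.0%, but these 14 were a small part of the 43 CpGs of its single measured bin. In Snrpn and Mest more than 50% of the CpGs (21 of 35 and 78 of 143) were between 20 and 80%, with none above 48.0% in Mest. Few CpGs of Nnat (44 of 105) and Plagl1 (34 of 109) had 10 reads, and the pooled levels of the cytosines with 10 reads were higher than those of all, at 72.2 and 82.2%. Of these CpGs, Nnat had 32 of 44 in this range and 10 above 80%. Plagl1 had 17 of 34 above 80% and the other 17 between 40 and 80%.

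Levels fell with the number of CpGs nearby at all 10 loci. CpGs of the start runs and 2 kb on each side were split by the CpGs within 75 bp, a split chosen after levels had been seen. Over the 10 loci the TAPSβ level was 59.7% for CpGs with 1 to 3, 39.9% for 4 to 7 and 15.0% for 8 or more, themselves counted. In Grb10 it went from 64.4 through 44.1 to 4.16%, in Peg10 from 63.5 through 26.5 to 9.64%, and in Snrpn from 34.8 through 23.7 to 7.09%. Nnat went from 80.4 through 78.8 to 50%, and Plagl1 from 85.7 through 83.6 to 63.4%. In these classes over all loci there were 1.27, 1.17 and 0.847 TAPSβ calls for each PS call, and 0.986, 1.04 and 0.872 CAPS calls. The parts of depth and of position, in the run or in its flanks, in this order were not tested. In the genome, dense bins with more CpGs also lay lower. Of autosomal bins of usual PS depth with 40 or more CpGs, 11977 stood under 5% TAPSβ and 11 above 70%. Of those with 15 to 24 CpGs, 11235 stood under 5% and 15959 above 70%.

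**Figure D4:**
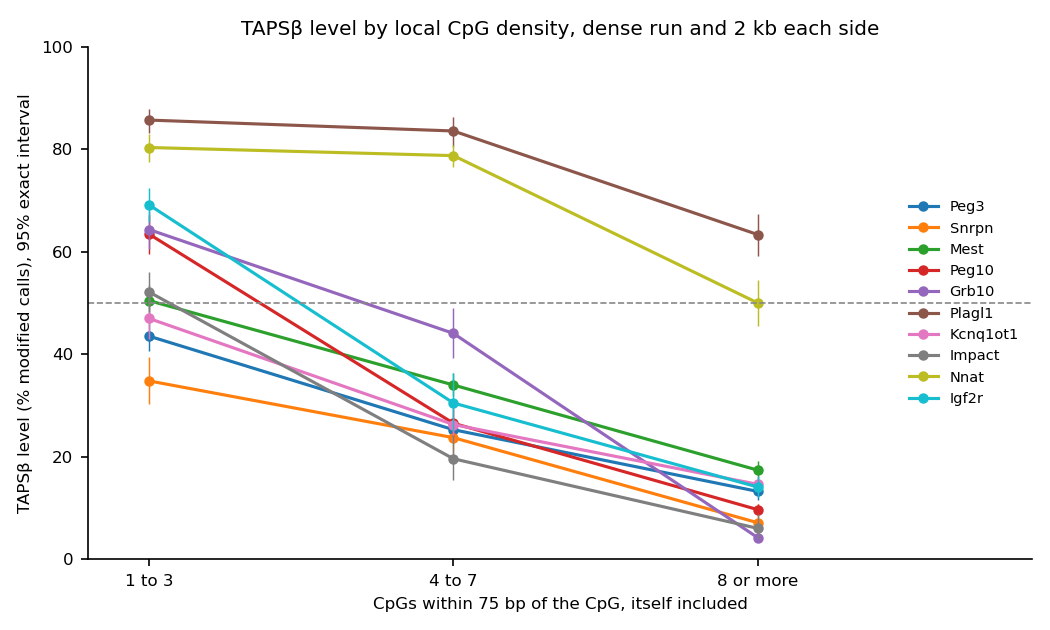
TAPSβ level in percent of base calls with exact 95% intervals by the number of CpGs within 75 bp, for CpGs of the start run and 2 kb on each side at each of the 10 loci. All lines fall to the right, from 34.8 to 85.7% at 1 to 3 CpGs to 4.16 to 63.4% at 8 or more, and the dashed line is 50%.

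The depth of TAPSβ moved with the level at these loci and has to be read beside it. In unmethylated dense bins of the genome (TAPSβ under 5%) there were 1.63 to 1.66 TAPSβ calls per PS call at the median of the 3 CpG classes (15 to 24, 25 to 39, 40 or more). At 30 to 70% this ratio was 0.974, 0.653 and 0.231, and above 70% it was 0.762, 0.380 and 0.211, while CAPS to PS was between 0.773 and 1.04 at these levels. At 5 to 30%, where 8 of the runs lie, TAPSβ to PS was 1.41, 1.34 and 1.31 and CAPS to PS was 0.796, 0.735 and 0.702. The members showed low depth both at high and at low levels. In the Nnat bin at 48.7% there were 154 TAPSβ calls against 764 in PS and 579 in CAPS, and in the Plagl1 bin at 51.0% there were 257 against 1118 and 684. The upstream Grb10 island had more TAPSβ than PS calls, 1300 against 816 in the bin at 0.692%. The imprinted internal island at 0.630% had fewer, 952 against 1289. The Igf2r promoter bins, at 0.271 and 4.14%, had 62.1 and 63.7% of the TAPSβ calls expected. This was close to the share in the run of Airn and in that of Peg10, which a single bin of high PS depth lowers.

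**Figure D5:**
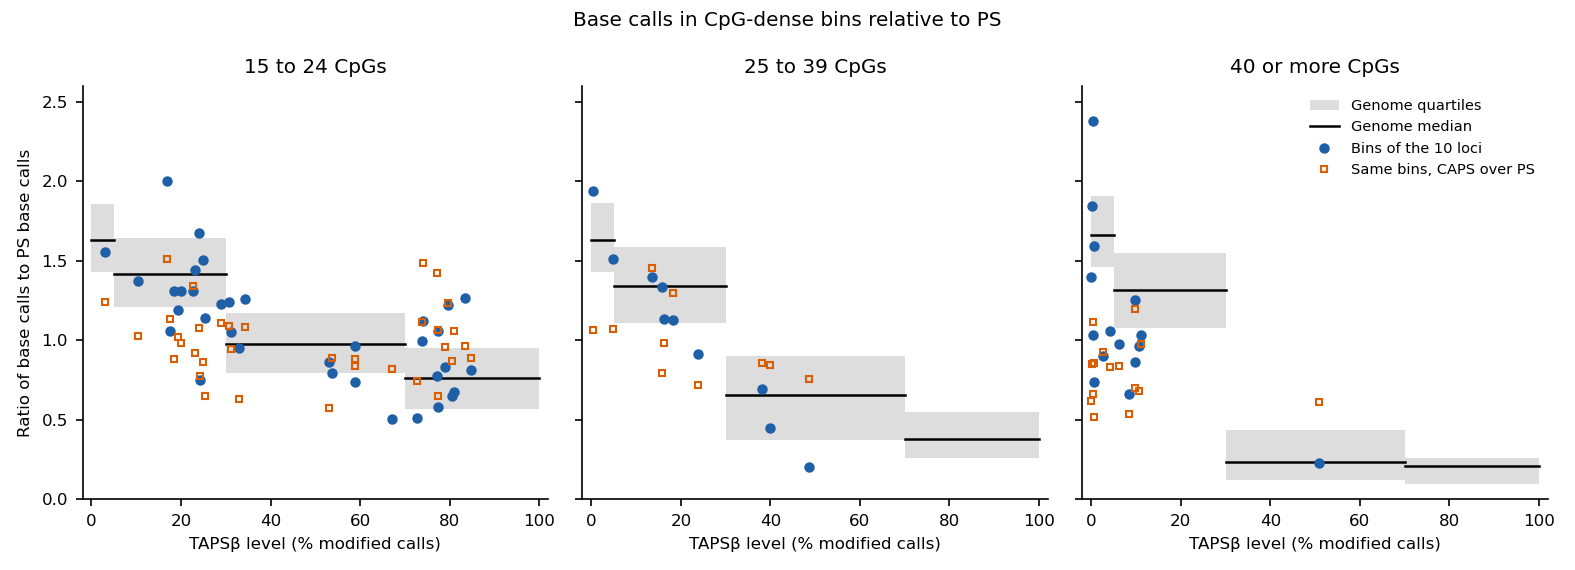
Ratio of TAPSβ (circles) and CAPS (open squares) base calls to PS base calls against the TAPSβ level in percent, for the dense bins of the 10 loci with 15 to 24, 25 to 39 and 40 or more CpGs. Black lines and grey boxes are the median and quartiles of the TAPSβ to PS ratio over autosomal dense bins; the circle at 51.0% in the right panel (Plagl1) lies at 0.230, that of the upstream Grb10 island at up to 2.38.

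Against the calls that the PS depth and the ratio of unmethylated bins would give, the start runs had 80.8% of the TAPSβ calls in Peg3, 78.0% in Mest, 73.3% in Snrpn, 62.9% in Peg10, 62.1% in Igf2r, 58.6% in Impact, 57.0% in Kcnq1ot1 and 52.0% in Grb10. Nnat had 25.9% and Plagl1 24.9%. If each missing call were counted as modified, the 8 low runs would stand between 33.3% (Peg3) and 52.0% (Kcnq1ot1), with Grb10 at 50.8%, and Nnat and Plagl1 at 89.4 and 92.2%. Using the quartiles of that ratio in place of its median moved the 8 to between 24.9 and 58.1%. Under this count the widened intervals of Grb10, Kcnq1ot1, Impact and Igf2r held 50% and those of the 6 other runs did not. These intervals treat missing calls as if observed and leave out the spread of the ratio. Between the quartiles of that ratio Peg10 moved from 37.3 to 51.7%, so which runs held 50% is not settled. Whether the missing calls were modified was not tested, so the levels of the runs hold for the molecules that gave calls. Under this count 2 of the 10 runs, Nnat and Plagl1, lay outside 30 to 70%, against 8 without it. Another setting moved it the other way. Over cytosines with at least 10 reads, without the missing calls, Nnat (72.2%) and Plagl1 (82.2%) lay above 70% and the 8 others below 30%.

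The ZFP57 motif TGCCGC was found in the start runs of all 10 loci. Searched on both strands, with overlapping matches counted, it occurred in 24 of the 39 dense bins of the start runs (61.5%) and in 31 of all 62 dense bins (50%), against 24.7% of the dense bins of the autosomes. The runs held from 3 copies in Peg10 and Kcnq1ot1 to 12 in Mest. Snrpn and Nnat, at 19.9 and 59.2%, had 8 each, and Peg3 and Plagl1, at 17.4 and 68.8%, had 6 each. In Impact all 5 copies lay in the bins without calls, and the measured bin had none. The motif holds a CpG, and the share of the autosomes is not matched for CpG number or GC content. A match says only that the letters are there.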

How the data were processed

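The 3 methods were applied to the same E14 mESC gDNA, with 1 library each. Per the study's methods and the submitters' processing notes, the authors trimmed reads with Trim Galore 0.3.1, mapped them with BWA 0.7.12 to mm9 plus spike-ins, removed duplicates with Picard 2.3.0, dropped reads that mapped poorly, and used asTair to call the modified bases. Per cytosine of a CpG, the files the authors deposited give the count of reads in each state, modified and unmodified, not normalized. The deposited fraction is modified over all reads and was not used beyond a check. Whether artifact-prone regions and known E14 variants were taken out before deposit is not given in the sources used here.

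Counts were pooled with Python 3.11.15, numpy 2.4.6, scipy 1.17.1 and pandas 2.3.3 over 500-bp bins (GENCODE annotation of NCBIM37; 1-based coordinates) with exact Clopper-Pearson 95% intervals. Bins had at least 15 CpGs to count as dense, and 30 to 70% as intermediate. The widened interval divides both counts by 3.13. Named genes are all 10 members. 5hmC calls used an adjusted p under 0.05. Calling was tested on simulated data. The members are defined by name, but they, the lists and the alternatives were proposed with earlier results of these data known. The start runs, the local CpG density and the count of missing calls were added after levels had been seen. Figures used matplotlib 3.10.9.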

Additional observations from a re-analysis of the deposited data

How the results depend on the processing

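No paired analysis was possible because each method has 1 library and the labels give no replicate numbers. The count of dense bins at 30 to 70%, 13, moved with its definition: to 31 from 10 CpGs, to 4 from 25 CpGs, to 6 at 40 to 60% and to 29 at 20 to 80%. The level of the start regions, 26.8%, was 23.8% with 250 bp on each side, 30.3% with 1000 bp, and 24.3% as the mean of single cytosines. Counting missing TAPSβ calls as modified, an alternative chosen after seeing the data, left 2 runs outside 30 to 70% in place of 8. It left 6 in place of 10 with an interval that did not hold 50%, though these intervals take missing calls as observed. Called 5hmC cytosines in the loci and flanks, 140, fell to 87 at 10 reads and to 68 at a background rate 2 times higher. Of the other 11 settings run, 9 left 10 of 10 runs departing from 50%, among them the whole span of each run, also added after seeing the data; on the minus strand alone there were 9, and with the interval on reads per CpG 8. With cytosines of at least 10 reads, Plagl1 stood at 82.2%, Nnat at 72.2% and Impact at 10.4%. The correction for spike-in rates, high coverage and variant-like cytosines moved none of the counts run with them. The spike-in correction put Plagl1 at 70.4%, just above 70%, and the count of runs outside 30 to 70% was not rerun with it. Depth limits single cytosines, and Impact rests on 1 bin.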

Other observations

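Other imprinted genes were measured in the same way. Of 19 other genes with maternal methylation, 17 are in the annotation. Their 82 dense bins outside the 10 loci had a median TAPSβ level of 12.1%, with 13 (15.9%) at 30 to 70%, 55 below, 11 above and 3 without calls. These bins were not limited to control regions. Of them 31 lie at Gnas, from 0 to 73.4%, and the Copg2 bins stood at 0.124 and 1.95%. The 2 dense bins of Nap1l5, a nucleosome assembly protein gene inside Herc3, stood at 48.6 and 78.8%, with 0.540 and 0.387 TAPSβ calls per PS call. The Zrsr1 start inside Commd1 stood at 10.1 to 30.5% over 4 bins, and Mcts2 inside H13 at 6.32 to 41.8% over 3 bins. At the internal Inpp5f start the 3 bins were at 14.9 to 39.9%. Bins at Peg12 and Mkrn3, genes of the Prader-Willi region, stood at 0.0618 to 7.29%, while Ndn had a bin at 21.7%, and Magel2 had 2 coding exon bins at 50.1 and 58.3% beside 2 at 1.37 and 4.53%.

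Genes with paternal methylation, whose mark comes from sperm, were measured as well. Their 27 dense bins (H19, Meg3, Rasgrf1 and Zdbf2) had a median of 31.5%, with 9 (33.3%) at 30 to 70%. Upstream of H19, 2 bins in the region known to bind CTCF stood at 92.4 and 85.7%, with 30.9 and 33.1% of the TAPSβ calls expected from PS, while Meg3, a noncoding RNA, had bins from 22.1 to 66.5%. These lists differ in TAPSβ depth, with a median of 81.9% and 77.7% of the calls expected from PS, against 64.7% in the members, and the difference between them was not tested.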
